A study of Mus musculus with 2 samples.

Results

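Aminoacyl-tRNA synthetases are the enzymes that load each amino acid onto its transfer RNA. The 36 mouse genes described here were matched by symbol from a list of these enzymes, by a rule that uses no measured value, out of 43346 mouse genes in the tables. They comprise 20 genes of cytosolic enzymes and 16 genes of mitochondrial enzymes, whose symbols end in 2. All 36 symbols matched a gene in both libraries, and all 36 passed the count minimum used below (a count of at least 20 summed over both libraries).

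The cells were G1E-ER4, an immortalized mouse erythroid progenitor line that is 1 line and not a set of animals. It lacks a working endogenous Gata1 gene and carries GATA1 joined to an estrogen receptor domain, so that estradiol restores GATA1 activity. Polyadenylated RNA was sequenced in paired ends after 3 h in 10 nM 17beta-estradiol, in 2 libraries labelled biological replicates 1 and 2. There was 1 group and no untreated control, so the values are levels in treated cells and the effect of estradiol was not measured.

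The charging of transfer RNA supplies both the cytosolic ribosome, which makes the large amounts of globin in erythroid cells, and the separate ribosome of mitochondria. Most amino acids have a cytosolic and a mitochondrial enzyme encoded by separate nuclear genes. Gars and Kars each encode both forms, Eprs joins the glutamate and proline enzymes in one protein, and Farsa and Farsb encode the subunits of one cytosolic phenylalanine enzyme. The enzymes fall into the structural classes I and II. When amino acids or heme run short, the factor ATF4 is known to raise transcription of several synthetase genes through the C/EBP-ATF response element.

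Replicate 1 held 31126956 expected counts, the estimated number of fragments per gene, and replicate 2 held 57853617. All 8 erythroid markers were at 1 TPM (TPM is an abundance scaled to transcript length, with the same total in each library) or more in both libraries. Their sum was 4776 TPM in the first replicate and 19178 TPM in the second. Its largest part was Zfpm1 in replicate 1, at 2427 TPM. In replicate 2 the sum came mostly from the globins Hba-a1 and Hbb-bs. By counts, 5 of the 8, with Gata1 at 5.33-fold, were higher in replicate 2 beyond counting noise, against 43.3% of all genes tested. Zfpm1, Klf1 and Tal1 were higher in replicate 1, against 37.4% of all genes tested. Counts of the GATA1 fusion and of the endogenous Gata1 gene cannot be told apart here. None of 10 markers of other cell types reached 1 TPM in both libraries. Those 10 summed to 1.27 and 0.60 TPM, and 6 of them, the T cell gene Cd3e, Lyz2, Alb, Krt8, Pecam1 and Nanog, had no count in either library. The libraries stood apart in globin: Hba-a1 was at 149 TPM in replicate 1 and 6606 in replicate 2, a value made uncertain by the near-identical copy of this gene. What part this difference between the libraries has in the differences of the synthetase genes given below was not tested.

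The promoters of 4 cytosolic members carry the element named above and are shown because the data include ATF4 and its response genes. RefSeq promoter sequences on GRCm38.p6, each 250 bases before to 50 after an annotated start, were given for 27 of the 36 members, 13 cytosolic and 14 mitochondrial. The letters TGATGCAA, the core of the C/EBP-ATF element, were searched on both strands and occurred in 4 of these 27 members (14.8%), against 0.895% of all 32851 promoters of that length. The letters CACGTG, an E box that MYC with MAX can bind, were in 5 of 27 (18.5%; Aars, Ears2, Farsb, Iars and Tars), against 7.15% of all promoters. Aars, Iars and Tars held both. The windows below run from 160 bases before to 25 after the RefSeq start, 5′ to 3′ on the gene's strand, with both motifs in capitals (TTGCATCA is the core read on the other strand).
Aars: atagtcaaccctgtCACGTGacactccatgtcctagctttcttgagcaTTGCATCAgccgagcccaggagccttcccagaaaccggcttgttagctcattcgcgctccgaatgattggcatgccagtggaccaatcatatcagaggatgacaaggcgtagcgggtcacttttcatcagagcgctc
Iars: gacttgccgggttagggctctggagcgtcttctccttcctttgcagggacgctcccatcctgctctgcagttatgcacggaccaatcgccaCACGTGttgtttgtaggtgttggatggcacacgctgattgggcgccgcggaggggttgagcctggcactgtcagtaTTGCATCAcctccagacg
Tars: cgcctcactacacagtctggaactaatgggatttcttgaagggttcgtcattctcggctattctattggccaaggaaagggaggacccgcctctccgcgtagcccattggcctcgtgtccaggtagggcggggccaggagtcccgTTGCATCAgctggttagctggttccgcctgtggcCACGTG
Yars: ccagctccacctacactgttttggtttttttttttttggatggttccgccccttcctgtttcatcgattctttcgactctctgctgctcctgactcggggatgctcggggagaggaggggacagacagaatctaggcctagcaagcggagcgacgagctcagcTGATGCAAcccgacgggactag

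The Aars window is chr8:111033682-111033866 on the plus strand, with its core 112 bases before the RefSeq start. This window lies within the Aars gene as placed by the GENCODE M21 annotation (chr8:111033144-111057664), which begins upstream of that start. In Iars (chr13:49681970-49682154, plus strand) the core began 7 bases after the start and the E box 69 bases before it. In Tars (chr15:11399634-11399818, minus strand) the core began 15 bases before the start. In Yars (chr4:129189743-129189927, plus strand) it began 3 bases after the start. These matches describe letters in a window, and binding was not measured.

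Synthetase genes ranged from 0.39 to 1444 TPM in replicate 1 and from 0.50 to 932 TPM in replicate 2. At 1 TPM or more in both libraries were 35 of 36 members, at 10 TPM or more 27, and at 100 TPM or more 3. The median member was at 28.6 TPM in replicate 1 and 31.9 in replicate 2. The median over all genes at 1 TPM or more was 18.2 TPM and 17.9 TPM. The plot of TPM by gene shows the order of the members and the distance between the libraries.

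**Figure D1:**
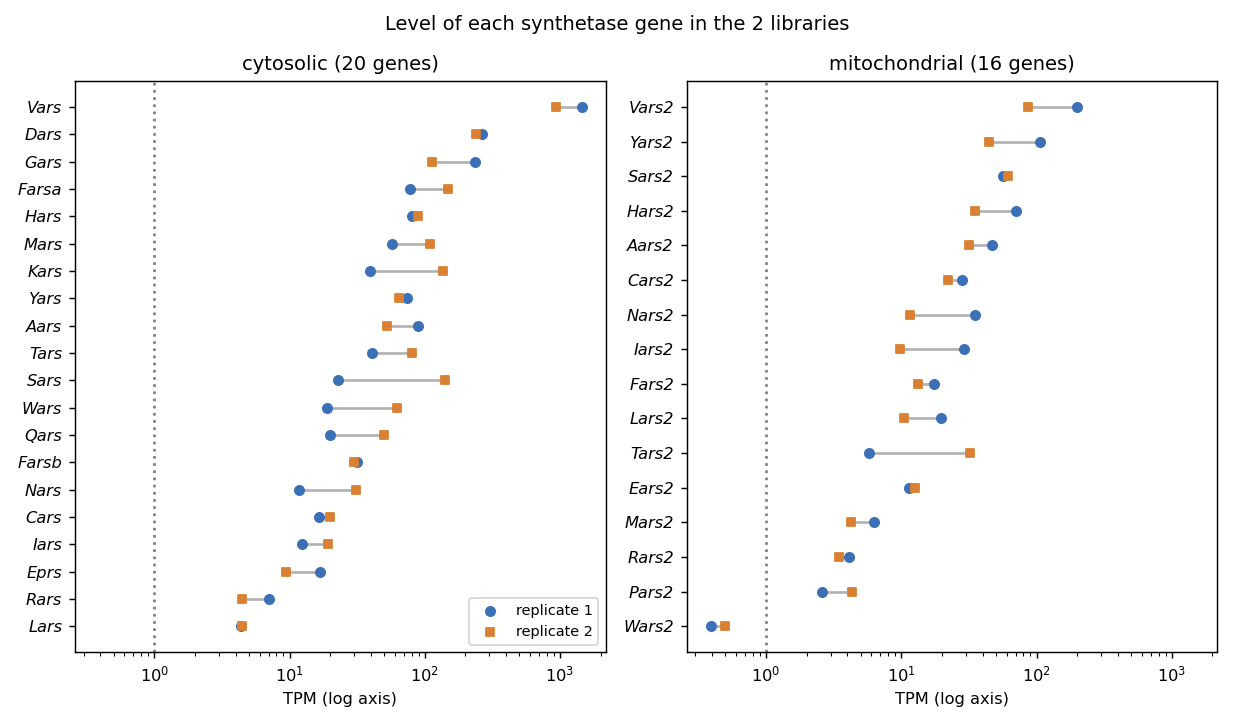
TPM of the 20 cytosolic (left) and 16 mitochondrial (right) synthetase genes on a log axis, with circles for replicate 1, squares for replicate 2 and a dotted line at 1 TPM. Vars stands at the top with 1444 and 932 TPM, and Wars2 lies below the dotted line in both libraries.

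Vars, the cytosolic valine enzyme (chr17:35000987-35016322, plus strand, GRCm38), was the most abundant member at 1444 TPM in replicate 1 and 932 in replicate 2 (1188 ± 362, SD, n = 2). It stood at the 99.0 and 98.5 percentile of genes at 1 TPM or more. It made up 45.0% of the TPM of all members in replicate 1 and 34.2% in replicate 2. Dars, the aspartate enzyme (chr1:128363707-128417368, minus strand), followed at 265 and 239.9 TPM. Gars, which serves glycine in both compartments (chr6:55038007-55079500, plus strand), was at 233 and 114 TPM. These 3 genes kept the first 3 places by mean TPM, although Farsa, Sars and Kars exceeded Gars in replicate 2.

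Among cytosolic genes, the next by mean TPM were Farsa, Kars, Hars, Mars and Sars, followed by Aars, Yars and Tars. Yars, for tyrosine, was at 74.4 and 64.6 TPM, and Tars, for threonine, at 40.9 and 80.7 TPM. The phenylalanine subunits were unequal: Farsa, the alpha subunit, was at 78.3 and 149 TPM, and Farsb, the beta subunit, at 31.6 and 29.9 TPM. Hars, for histidine, was at 80.9 and 88.7 TPM. Aars, for alanine, was at 88.9 and 52.9 TPM. The 2 libraries gave Hars and Aars the opposite order, so these genes do not differ beyond their spread.

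The cytosolic genes at the low end were Lars and Rars. Lars, the leucine enzyme, was at 4.41 and 4.42 TPM, from 407 and 859 counts, and was the lowest cytosolic member in both libraries. Rars, the arginine enzyme, was at 7.03 and 4.47 TPM. Eprs was at 16.9 and 9.38 TPM, Cars (cysteine) at 16.5 and 20.01 TPM, and Iars (isoleucine) at 12.3 and 19.2 TPM. The libraries were further apart for Rars than Rars was from Lars in replicate 2.

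The mitochondrial genes ranged from Vars2 at 200.3 and 86.9 TPM to Wars2 at 0.39 and 0.50 TPM. Yars2, for tyrosine, was at 106 and 44.2 TPM. Sars2, for serine, was at 56.9 and 61.6 TPM, Hars2 at 71.05 and 35.3 TPM, and Aars2 at 47.0 and 31.8 TPM. Below these lay Cars2 (28.1 and 22.1 TPM), Fars2 (17.4 and 13.4 TPM) and Ears2 (11.4 and 12.7 TPM). Ears2, the mitochondrial glutamate enzyme, also loads glutamate onto the glutamine transfer RNA.

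Mars2 (6.31 and 4.26 TPM), Rars2 (4.13 and 3.49 TPM) and Pars2 (2.59 and 4.32 TPM) were the lowest mitochondrial genes above 1 TPM by mean TPM. Tars2, at 5.75 and 32.02 TPM, lay below Mars2 in replicate 1. Wars2, for tryptophan (chr3:99141068-99239186, plus strand), rested on 41 and 112 counts and was the 1 member under 1 TPM. Its cytosolic counterpart Wars was at 19.1 and 62.6 TPM.

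Cytosolic genes had higher levels than mitochondrial genes, by an amount that differed between the libraries. The median cytosolic gene was at 35.6 TPM in replicate 1 and 63.6 in replicate 2, and the median mitochondrial gene at 23.8 and 13.0 TPM. On the log2(TPM + 1) scale the difference of the medians was 0.58 in replicate 1 and 2.20 in replicate 2 (1.39 ± 1.15, SD, n = 2). With Gars and Kars, which serve both compartments, left out, the difference was 0.19 in replicate 1 and 2.06 in replicate 2. The SD is nearly as large as the mean, so with 2 libraries the direction was shared and the size was not settled. In summed TPM the 20 cytosolic genes held 2565 and 2339 TPM, and the 16 mitochondrial genes held 641 and 384 TPM.

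The comparison was also made within 16 pairs of enzymes for the same amino acid, with Eprs paired with both Ears2 and Pars2. The cytosolic gene was higher in both libraries in 9 pairs, the mitochondrial gene in 2, and the direction differed between the libraries in 5. By the mean of the libraries, the widest gaps were those of Wars over Wars2, with log2 ratios of 3.85 and 5.41, of Mars over Mars2 (2.99 and 4.39) and of Vars over Vars2 (2.84 and 3.41). Farsa over Fars2 followed by that mean with 2.11 and 3.38, although Tars over Tars2 (2.63) and Eprs over Pars2 (2.32) were wider in replicate 1. The other 5 pairs with the cytosolic gene higher were those of Aars, Hars, Rars and Tars with their partners and of Eprs with Pars2.

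The mitochondrial gene was higher in both libraries for leucine and cysteine. Lars2 was at 19.5 and 10.4 TPM, which is 4.43 times and 2.36 times the TPM of Lars. Cars2 exceeded Cars 1.71 times in replicate 1 and 1.11 times in replicate 2. The direction changed between libraries for Eprs with Ears2 and for the isoleucine, asparagine, serine and tyrosine pairs. In the last 4 of these the mitochondrial gene was higher in replicate 1 and the cytosolic gene in replicate 2. Nars and Nars2 showed the largest swing, at 11.7 and 35.2 TPM in replicate 1 and 31.2 and 11.5 TPM in replicate 2.

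**Figure D2:**
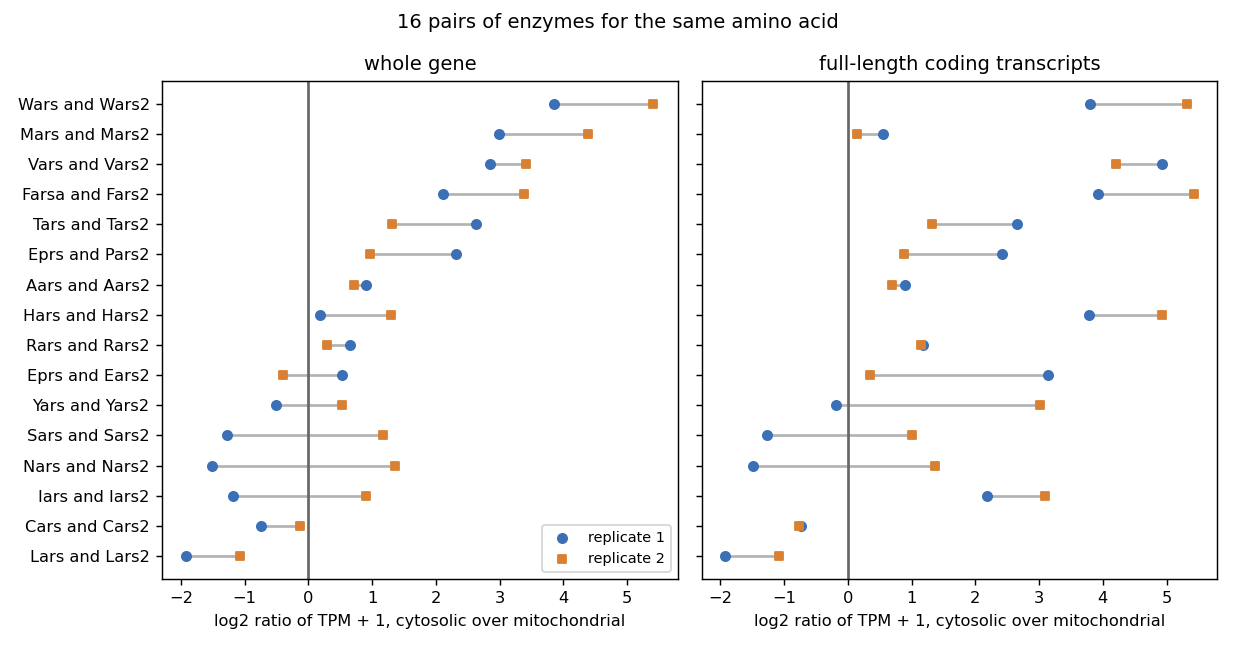
Log2 ratio of TPM + 1, cytosolic over mitochondrial gene, for 16 pairs in replicate 1 (circles) and replicate 2 (squares), from the whole gene (left) and from transcripts with a full-length coding sequence (right). Both symbols lie right of 0 in 9 pairs on the left and in 11 pairs on the right, and the pairs of Lars and Cars lie left of 0 in both panels.

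The deposited transcript tables divide each gene's TPM among its annotated transcripts, and for several members most of it was assigned to a model that does not encode the whole enzyme. A transcript was counted as full-length coding when its annotated coding sequence was complete and held at least 80% of the gene's longest one (GENCODE M21), a rule chosen after the transcript values were seen. By this rule the most abundant transcript was full-length in 24 members in replicate 1 and 25 in replicate 2. It was coding but shorter in 5 members in each library. It was a retained intron model, a non-coding transcript that keeps intron sequence, in 7 members in replicate 1 and 6 in replicate 2, that is in 19.4% and 16.7% of members. Among protein-coding genes at 1 TPM or more, 8.42% and 7.80% had such a model on top.

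Retained intron models took 23.5% of the members' TPM in replicate 1 and 20.2% in replicate 2, against 12.7% and 13.3% over all genes. Full-length coding transcripts took 40.5% and 54.0% of the members' TPM, against 55.1% and 58.1% over all genes. The median member nevertheless had 97.4% and 95.7% of its TPM in full-length transcripts, close to the median of 94.9% and 94.2% over coding genes. In each library 12 members were under 50%, which is 33.3% of members, against 32.3% and 30.9% of coding genes. Vars alone, at 45.0% and 34.2% of the members' TPM, weighs most in the shares taken over TPM. For 10 members the tables list 1 transcript, so their TPM could not be divided.

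**Figure D3:**
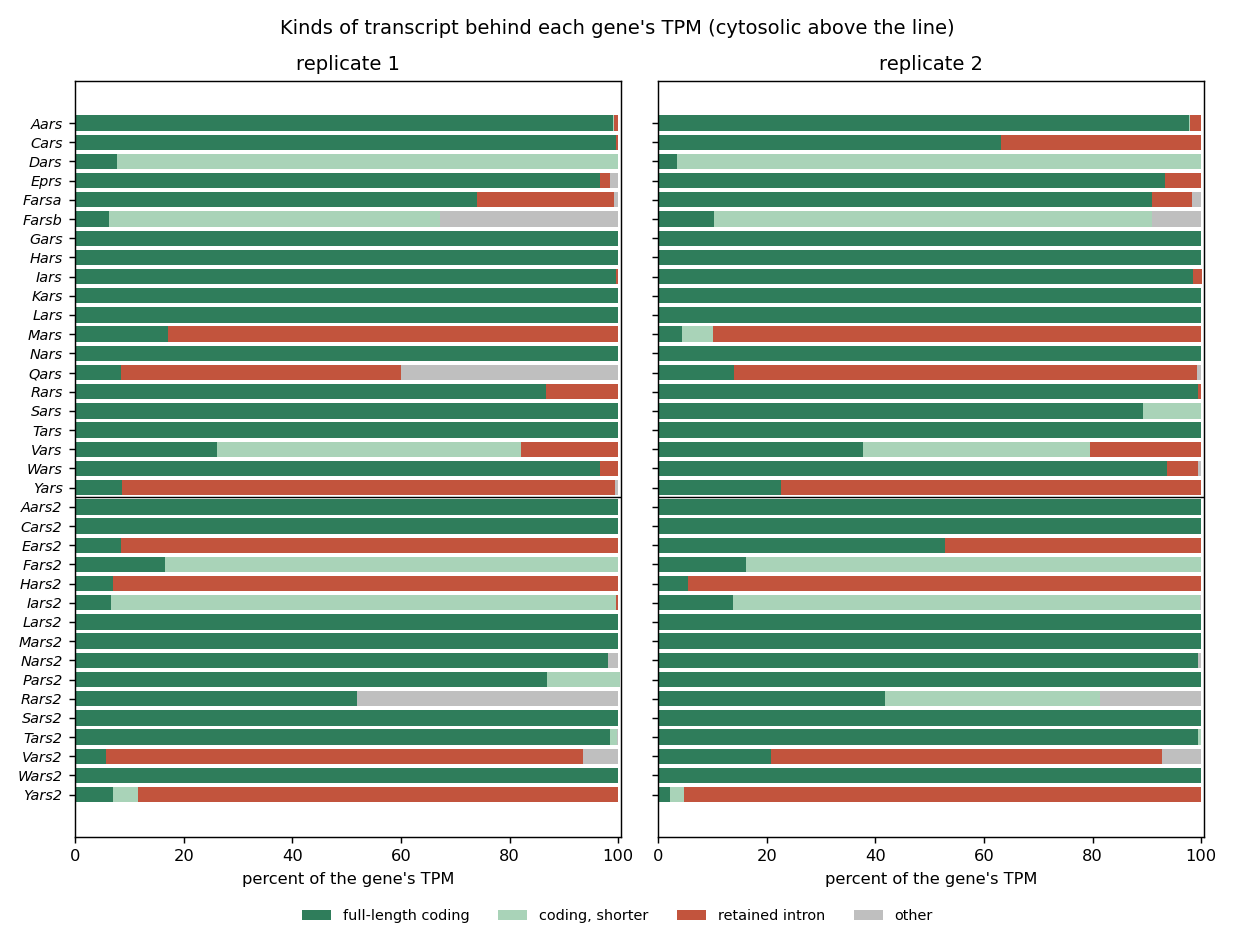
Percent of each gene's TPM assigned to full-length coding, shorter coding, retained intron and other transcripts in replicate 1 (left) and replicate 2 (right), with the 20 cytosolic genes above the line and the 16 mitochondrial genes below it. In Hars2, Yars2, Vars2, Yars and Mars the retained intron part is at least 72.0% of the bar in both libraries.

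In Vars the model Vars-213, which encodes 230 residues of 1263 and has 4 exons against 30, was at 729 and 387 TPM. It spans chr17:35001317-35004802, at the start of the gene, and the annotation marks its end as not found. Its 230 residues are thus the annotated part only. The full-length Vars-201 was at 378 and 351 TPM, so that the difference between the libraries lay mainly in the shorter model. With the full-length form alone Vars was still the most abundant member in both libraries.

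In Dars the short model Dars-202, with 87 of 501 residues, took 92.2% of the gene's TPM in replicate 1 and 96.6% in replicate 2. It begins 9 bases before the full-length transcript and ends 48411 bases before that transcript's end. Full-length Dars was at 20.5 and 8.10 TPM, far below the level of the gene as a whole. Farsb-203, with 237 of 589 residues, likewise lies at the start of its gene and took 61.0% and 80.7%. The end of Farsb-203 is also marked as not found, so its 237 residues are the annotated part only.

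For 4 mitochondrial genes most TPM went to a retained intron in at least 1 library. In Hars2 a 772-base model took 92.8% and 94.2% of the gene's TPM, and full-length Hars2 was at 4.97 and 1.94 TPM. In Yars2 a 1412-base model took 88.4% and 95.2%, leaving 7.42 and 0.93 TPM of full-length transcript. In Vars2 a 722-base model took 81.8% and 65.4%, leaving 11.5 and 18.1 TPM. In Ears2 a 3222-base model took 89.8% in replicate 1 and 46.0% in replicate 2. In the cytosolic gene Yars a 647-base retained intron model took 89.6% and 76.6%, leaving 6.37 and 14.6 TPM of full-length transcript. Hars and Hars2 overlap by 198 bases on opposite strands at the start of Hars2. The 772-base Hars2 model begins 261 bases after the start of the full-length transcript, outside this overlap. Whether counting used strand is not given in the sources used here.

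The most abundant transcript was the same in both libraries for 32 of 36 members (88.9%), against 79.6% of 8279 coding genes at 1 TPM or more in both. The 4 exceptions were Mars, Qars, Ears2 and Iars2. In Mars, the methionine enzyme (chr10:127296221-127311786, minus strand), the retained intron model Mars-205 of 3065 bases was at 47.0 TPM in replicate 1 and 12.9 in replicate 2. The 467-base model Mars-204, 127 bases from the end of the full-length transcript, was at 0.18 and 85.3 TPM. Mars overlaps Ddit3, which encodes the stress factor CHOP, by 68 bases on the opposite strand. Mars-204 (chr10:127296349-127297675) lies outside that overlap. Ddit3 was at 9.91 and 60.3 TPM.

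In Iars2 the leading model of replicate 1 encodes 560 of 1012 residues and was at 24.9 and 0 TPM. That of replicate 2 encodes 733 residues and was at 2.26 and 8.38 TPM. In Qars, the glutamine enzyme, it was Qars-215 at 6.12 and 0 TPM and then Qars-212 at 0.10 and 36.5 TPM, both retained intron models. Full-length Qars was at 1.69 and 6.94 TPM. A transcript at 0 here is an estimate of 0, since fragments shared between models are divided by the authors' quantifier.

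Taking full-length transcripts alone, the difference of the medians between cytosolic and mitochondrial genes was 1.40 in replicate 1 and 1.98 in replicate 2 (1.69 ± 0.41, SD, n = 2). The cytosolic gene was then higher in both libraries in 11 pairs, the mitochondrial gene in 2, and 3 pairs differed in direction (asparagine, serine and tyrosine). The pairs of Eprs with Ears2 and of Iars with Iars2 joined those with the cytosolic gene higher. The gap of Mars over Mars2 shrank to 9.71 against 6.31 TPM and 4.79 against 4.26 TPM. The leucine and cysteine pairs kept the mitochondrial gene higher, which this rule could not have changed. Lars, Lars2 and Cars2 have 1 listed transcript each, and the value of Cars could only fall.

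Kars shows how one gene serves both compartments, and the sequence that separates its forms is given for that reason. The transcript Kars-201 encodes the cytosolic lysine enzyme of 595 residues, and Kars-202 includes an added exon and encodes the mitochondrial form of 624 residues. Of the 180 bases of this exon (chr8:112008207-112008386, minus strand, GRCm38), 146 are coding, at chr8:112008207-112008352. They are shown 5′ to 3′ on the gene's strand with the start codon in capitals.
Kars-202 exon: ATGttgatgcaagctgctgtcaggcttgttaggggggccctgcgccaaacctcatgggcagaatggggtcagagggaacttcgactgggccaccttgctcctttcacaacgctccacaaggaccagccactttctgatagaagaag

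Kars-201 was at 33.2 TPM in replicate 1 and 106 in replicate 2. Kars-202 was at 6.28 and 25.5 TPM. The gene as a whole was at 39.7 TPM in replicate 1 and 136 in replicate 2, and the share of Kars-202 was 15.8% and 18.7%. Kars-201 held 83.7% and 78.0%, so the shares of these 2 transcripts lay close together in libraries whose Kars level differed. Kars-203, another full-length coding transcript, was at 0.18 TPM in replicate 1 and 4.42 in replicate 2. Gars has 1 listed transcript, and its compartment forms, which arise from alternative starts of translation, cannot be told apart in these tables.

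The libraries were compared by scaled counts, that is counts divided by library sizes with TMM factors. Each gene was tested with a two-sided exact conditional binomial test, adjusted by the Benjamini-Hochberg method over 10635 genes. This test asks whether 2 libraries differ by more than counting noise, and says nothing of conditions. Beyond counting noise (adjusted p under 0.05) were 29 of 36 members (80.6%), against 80.7% of all genes tested. Higher in replicate 1 were 12 members (33.3%, against 37.4% of all genes) and higher in replicate 2 were 17 (47.2%, against 43.3%). The members' shares are thus near those of all genes. In bulk RNA, fewer cells that express a gene and less RNA per cell cannot be told apart.

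At least 2-fold apart were 10 members (27.8%), against 26.8% of all genes tested. Of these, 9 were higher in replicate 2 (25.0%, against 19.5%) and 1 in replicate 1 (2.78%, against 7.32%). This split depends on the measure: by TPM with a pseudocount of 1, 6 members were at least 2-fold higher in replicate 2 and 5 in replicate 1. The 9 were Sars, Tars2, Qars, Kars, Wars, Nars, Tars, Farsa and Pars2, of which 7 are cytosolic, and the 1 was Nars2. The median log2 ratio of replicate 1 over replicate 2 was -0.42 over cytosolic members, 0.12 over mitochondrial members and -0.06 over all genes tested. By structural class, 7 of 17 class II members were at least 2-fold higher in replicate 2 and 2 of 18 class I members.

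**Figure D4:**
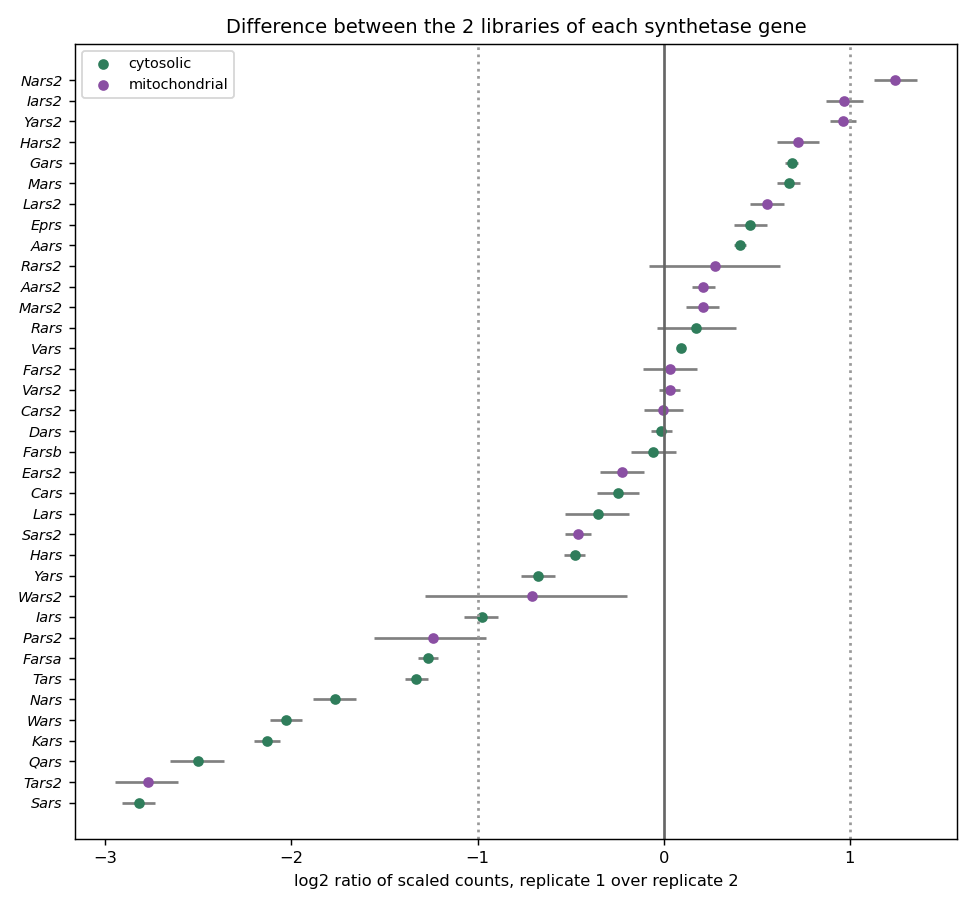
Log2 ratio of scaled counts, replicate 1 over replicate 2, for 36 synthetase genes, with exact 95% intervals for counting error as grey lines and dotted lines at 2-fold. Of the points left of the lower dotted line 7 are cytosolic and 2 mitochondrial, and Nars2 lies right of the upper one.

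Sars, the serine enzyme (chr3:108424865-108445209, minus strand), had 1124 counts in replicate 1 and 13115 in replicate 2. It was 7.07-fold higher in replicate 2 (95% interval of the counts 6.66 to 7.52). Tars2, the mitochondrial threonine enzyme (chr3:95739976-95760206, minus strand), had 316 and 3570 counts and was 6.82-fold higher in replicate 2 (6.10 to 7.71). Its cytosolic counterpart Tars was 2.51-fold higher there (2.41 to 2.62). Both threonine genes were thus higher in replicate 2, and in TPM Tars stayed above Tars2 in both libraries.

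Qars had 432 and 4043 counts and was 5.66-fold higher in replicate 2. Kars (1864 and 13461 counts) was 4.38-fold higher there and Wars (1237 and 8334 counts) 4.08-fold. Nars (723 and 4057 counts) was 3.40-fold higher, Farsa 2.41-fold and Pars2, on 118 and 463 counts, 2.36-fold (1.94 to 2.94). Iars came just short at 1.97-fold. Farsb, the partner subunit of Farsa, did not pass the exact test (1.04-fold, interval 0.957 to 1.13, adjusted p = 0.397).

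Nars2, the mitochondrial asparagine enzyme, had 1491 counts in replicate 1 and 1036 in the deeper replicate 2, and was 2.37-fold higher in replicate 1 (2.19 to 2.57). Iars2 (1.96-fold) and Yars2 (1.95-fold) were just short of 2-fold in the same direction. Gars, Mars and Hars2 were between 1.59-fold and 1.65-fold higher in replicate 1. Vars was 1.07-fold higher in replicate 1 (1.06 to 1.08), a small difference that passed the exact test because it rests on 60718 and 93794 counts.

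The 7 members that did not pass the exact test were Dars, Farsb, Rars, Cars2, Fars2, Rars2 and Vars2. Scaled counts and TPM pointed in opposite directions for 5 members, Dars, Farsb, Mars, Yars and Cars2, of which Mars and Yars were beyond counting noise. By counts, the direction of Dars, Farsb and Cars2 also changed with the scaling used. Mars was 1.59-fold higher in replicate 1 by counts and higher in replicate 2 by TPM (56.9 and 109 TPM). The mean length of its transcripts, weighted by abundance in the deposited table, was 3038 bases in replicate 1 and 891 bases in replicate 2. In Yars that length was 841 and 1163 bases. It differed by at least 1.5-fold between the libraries in 3 members, Mars, Qars and Vars2.

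The partners of the synthetases were described by lists. Of the 8 enzyme genes of the multisynthetase complex, a cytosolic assembly, 2 were beyond counting noise and higher in replicate 1 (Mars and Eprs), 4 were higher in replicate 2 (Qars, Kars, Iars and Lars), and Dars and Rars passed in neither direction. Over all genes tested, 37.4% were higher in replicate 1 and 43.3% in replicate 2. Of the 3 scaffold genes, Aimp2 was at 26.8 and 206 TPM and 7.29-fold higher in replicate 2 by counts. Eef1e1 was at 36.1 and 64.6 TPM (2.25-fold), and Aimp1 was at 7.40 and 5.98 TPM and did not pass (adjusted p = 0.904 by the exact test). Thus 2 of the 3 scaffold genes were beyond counting noise, both higher in replicate 2.

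Mitochondria lack an enzyme of their own that loads glutamine onto its transfer RNA. They convert the glutamate that Ears2 loads, through an amidotransferase encoded by Gatb, Gatc and Qrsl1. All 3 and Mtfmt, which formylates the initiator methionine, were above 1 TPM in both libraries. Gatb was at 1.34 and 9.07 TPM and 5.29-fold higher in replicate 2, Gatc at 39.8 and 19.04 TPM and 1.64-fold higher in replicate 1. Qrsl1 was at 1.89 and 2.46 TPM. Of these 4 genes, 2 were beyond counting noise in each direction, against 37.4% (replicate 1) and 43.3% (replicate 2) of all genes tested.

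Of 4 factors that remove wrongly loaded amino acids, Aarsd1 was at 107 and 86.7 TPM and did not pass the exact test (adjusted p = 0.937). Prorsd1 was at 1.81 and 26.97 TPM, on 35 and 1136 counts, and Dtd1 at 4.55 and 25.9 TPM. Both were at least 2-fold higher in replicate 2, as were 19.5% of all genes tested. Dtd2 was at 26.6 and 13.9 TPM and 1.38-fold higher in replicate 1. In the selenocysteine route, which starts from serine loaded by Sars, Pstk was at 117 and 48.7 TPM. Beyond counting noise, 3 of 4 genes were higher in replicate 1, against 37.4% of all genes tested. None of these 4 reached 2-fold, whereas 26.8% of all genes tested did.

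Elongation factors work with the charged transfer RNA at the ribosome. The 5 cytosolic ones had a median of 140.04 and 439.6 TPM, above the median synthetase gene in both libraries. Of these, 4 were higher in replicate 2 beyond counting noise, against 43.3% of all genes tested. Eef2, which moves the ribosome along, was at 399.8 and 2598 TPM and 8.28-fold higher in replicate 2. Eef1a1, which carries the charged transfer RNA to the ribosome, was at 528 and 349.8 TPM and 1.25-fold higher in replicate 1 by counts. The 4 mitochondrial ones had a median of 24.1 and 52.6 TPM, below the median synthetase gene in replicate 1 and above it in replicate 2, with Tufm, the mitochondrial carrier, at 27.7 and 74.9 TPM.

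The Atf4 transcript was at 72.4 and 77.02 TPM and 1.35-fold higher in replicate 2 by counts, and ATF4 protein was not measured. Of 10 genes on the list of ATF4 and its response, 7 were at 1 TPM or more in both libraries, and 9 could be tested. Beyond counting noise, 2 were higher in replicate 1 (Psat1 and Phgdh) and 5 in replicate 2 (Atf4, Asns, Ddit3, Sesn2 and Nupr1), against 37.4% and 43.3% of all genes tested. Atf5 was at 385 and 299 TPM and did not pass the exact test (adjusted p = 0.225), nor did Trib3. Asns, the asparagine synthetase of metabolism, was at 77.0 and 53.4 TPM, so that its TPM was higher in replicate 1 and its scaled count in replicate 2.

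The 4 members whose promoters hold the C/EBP-ATF core did not share one direction between the libraries. Aars was 1.33-fold higher in replicate 1, and Iars (1.97-fold), Tars (2.51-fold) and Yars (1.60-fold) were higher in replicate 2 by scaled counts. Over all genes tested, 37.4% were higher in replicate 1 and 43.3% in replicate 2 beyond counting noise. On the list of ATF4 and its response, 2 genes were higher in replicate 1 and 5 in replicate 2. Of these, Ddit3 was 7.45-fold higher in replicate 2, more than any of the 4 members. Atf4 was 1.35-fold and Asns 1.33-fold higher in replicate 2, and Psat1 was 1.33-fold higher in replicate 1.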

How the data were processed

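Polyadenylated RNA was measured in 2 libraries that form 1 group. Reads were aligned to mm10 and quantified on GENCODE M4, per the text deposited with the tables, with tools that the sources used here do not state. The deposited expected counts are estimated fragments per gene or transcript, not normalized, and were rounded to whole numbers here. The deposited TPM and FPKM values are scaled to transcript length by the authors, and the deposited transcript tables give each transcript's percent of its gene. Posterior mean versions served as alternatives. Positions, transcript types and coding lengths came from GENCODE M21 (GRCm38), whose models can differ from M4, and promoters from RefSeq.

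Library sizes were scaled by TMM (edgeR 4.0.16), with a prior count of 2 in ratios. One library a side leaves the quasi-likelihood test of edgeR without residual degrees of freedom, so the exact conditional binomial test was used at 0.05. Intervals cover counting error only, and p-values measure counting noise. A count of 0 allows up to 3 counts. The test was tried on simulated counts that held counting noise only, which is what the test assumes. That trial cannot show how the test behaves under other spread between replicates. All members were named, other genes by their lists, and transcripts where most abundant or at 10% of a gene. Alternatives covered scaling, filters, units and transcript sets. The member list and the gene lists were drawn up with earlier results of these data known, although members were matched by name alone.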

Additional observations from a re-analysis of the deposited data

How the results depend on the processing

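The difference of the medians of cytosolic and mitochondrial genes stayed positive under the 9 alternatives run and ranged from 1.13 to 1.69 as a mean of both libraries. In replicate 1 it fell to 0.19 without Gars and Kars and to 0.33 with members at 1 TPM or more in both. Leaving out 1 library gave 0.58 (without replicate 2) and 2.20 (without replicate 1), so the size of this difference rests on which library is read. The number of pairs with the cytosolic gene higher ranged from 9 to 13, and members at 1 TPM or more from 33 (full-length transcripts) to 35. At the threshold of 10 TPM there were 27 members. Members beyond counting noise numbered 29 to 33, and the number at least 2-fold apart 10 to 12. The number at least 2-fold higher in replicate 1 was 1, and became 3 with total counts, 3 with TMM factors from genes with a summed count of 20 (chosen after seeing the data) and 5 with TPM and a pseudocount of 1, when the number higher in replicate 2 went from 9 to 6. The cause was not tested. Total counts moved the median log2 ratio of all genes by 0.17 toward replicate 1. The log2 ratio of Dars became 0.16 with total counts and 0.047 with that TMM, of Farsb 0.12 and 0.0037, and of Cars2 0.17 and 0.058, and 0.0068 with DESeq2 size factors, each opposite to the main direction. None of these 3 genes was beyond counting noise in the main comparison. With total counts Cars and Ears2 lost their call, and Dars, Rars, Cars2, Fars2, Rars2 and Vars2 gained one. No paired analysis was possible because there is 1 group. Depth limits Wars2, Pars2 and Rars2, which rest on the fewest counts.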
